A study of Mus musculus with 16 samples.

Results

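The cytosolic sensors of RNA and DNA were followed over 42 h with PL2-3 in B cells from the spleens of AM14 mice. They were 8 genes chosen by name, Ddx58, Ifih1, Dhx58, Mavs, Eif2ak2, Zbp1, Trex1 and Samhd1, of 34741 genes read on the arrays, and 13 of 55681 distinct probes carried one of their names. The cells came from mice lacking both Tlr7 and Tlr9 (DKO), mice lacking Tlr9 (Tlr9KO), mice lacking Tlr7 (Tlr7KO) and WT mice, and all of them carried the AM14 antigen receptor, which binds IgG. Stimulation was with PL2-3, a monoclonal autoantibody to chromatin, for 0 h (none), 6, 24 or 42 h. There were 16 arrays, 1 per genotype and time, each comparing a sample in Cy5 with the same Cy3 reference, pooled RNA of unstimulated B cells of the 4 genotypes. How the mice were bred, their age and sex, the dose of PL2-3 and any pooling of animals were not given in the sources used.

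Cytosolic sensors tell a cell that nucleic acid is present outside the endosome, where TLR7 reads RNA and TLR9 reads DNA. RIG-I (Ddx58) and MDA5 (Ifih1) are helicases that bind double-stranded RNA and signal through the mitochondrial adaptor MAVS to interferon genes, and LGP2 (Dhx58) binds the same ligands but lacks the signalling domains. PKR (Eif2ak2) stops translation on double-stranded RNA and ZBP1 binds left-handed nucleic acids, while TREX1 digests cytosolic DNA and SAMHD1 degrades the nucleotides that DNA is made from. Several of these genes are themselves induced by interferon in many cell types.

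Depth on an array is signal over background, and between 37.4% (Tlr9KO at 0 h) and 62.7% (Tlr7KO at 42 h) of the spots stood well above it in Cy5. The brightest probe of each sensor, which stands for the gene below, was above background in Cy5 on 16 of 16 arrays, and 0 spots were saturated. With no replicates, the number of arrays limits the precision, and the p-values from limma measure a difference only against the scatter between genotypes or between times. WT and Tlr7KO RNA lay on 1 slide and Tlr9KO and DKO RNA on the other, so slide and the presence of Tlr9 cannot be told apart. There were no cells kept in culture without PL2-3, and the antibody's effect and that of culture cannot be told apart. The Tlr7 transcript stood between -0.73 and 0.41 on the 8 arrays of cells lacking the gene, against 0.32 to 1.71 on the 8 arrays of cells with it (log2 of Cy5 over Cy3), and the groups overlapped slightly. The Tlr9 probe did not separate the genotypes, with -1.14 to 0.04 on the 8 arrays of cells lacking Tlr9, against -0.84 to -0.03 on the 8 arrays of cells with it. The 7 B cell markers were above background on every array.

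The sensors' promoter windows are shown because several sensors are textbook interferon targets and their transcripts moved in opposite directions below. A RefSeq table on the GRCm38.p6 build held windows from 250 bases before the transcription start to 50 after it for 6 of the 8 sensors (all but Dhx58 and Zbp1). These windows were searched for the letters GAAANNGAAA, a core form of the interferon-stimulated response element, on both strands. Ddx58, Ifih1 and Eif2ak2 each held 1 match, and Mavs, Trex1 (with 2 windows) and Samhd1 held 0, while 3.99% of the 27025 genes in the table held at least 1. Each match lay just after the start, at bases 3 to 12 in Ddx58 (on the reverse strand), 33 to 42 in Ifih1 and 19 to 28 in Eif2ak2. The letters TTCNNNGAA, a form of the interferon-gamma activated site, were found in the windows of Eif2ak2 and Samhd1 and in 9.55% of all genes. A match describes the letters and does not show that a factor binds. The windows of the 3 genes with a match follow, all on the minus strand of the chromosome and written 5′ to 3′ along the gene, with the match in capitals. They lie at chr4:40239776-40240075 (Ddx58), chr2:62646206-62646505 (Ifih1) and chr17:78882523-78882822 (Eif2ak2).
Ddx58: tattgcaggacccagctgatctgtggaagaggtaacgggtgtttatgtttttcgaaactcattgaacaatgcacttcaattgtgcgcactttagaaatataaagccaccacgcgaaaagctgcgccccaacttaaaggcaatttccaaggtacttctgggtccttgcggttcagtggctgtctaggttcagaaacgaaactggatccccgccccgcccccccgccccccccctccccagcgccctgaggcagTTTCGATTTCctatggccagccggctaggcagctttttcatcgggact
Ifih1: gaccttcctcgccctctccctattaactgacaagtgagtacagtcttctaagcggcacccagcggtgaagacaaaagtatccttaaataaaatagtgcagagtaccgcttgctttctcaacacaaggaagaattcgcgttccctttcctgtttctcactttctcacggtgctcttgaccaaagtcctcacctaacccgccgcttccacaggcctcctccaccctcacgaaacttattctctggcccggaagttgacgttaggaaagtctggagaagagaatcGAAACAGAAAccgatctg
Eif2ak2: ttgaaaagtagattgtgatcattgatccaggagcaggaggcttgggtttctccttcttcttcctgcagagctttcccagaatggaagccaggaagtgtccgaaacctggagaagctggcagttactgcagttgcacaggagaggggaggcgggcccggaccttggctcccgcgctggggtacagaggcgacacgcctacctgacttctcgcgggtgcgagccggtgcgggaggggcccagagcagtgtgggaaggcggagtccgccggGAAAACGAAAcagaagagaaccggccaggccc

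At 6 h the sensors that changed were lower (with median centring Ifih1 was higher), and from 6 to 24 h most of the sensors rose. In Tlr9KO, Tlr7KO and WT cells together, 4 of the 8 sensors fell at 6 h and 0 rose, and the largest fall was that of the nucleotide-degrading enzyme Samhd1, which fell by 4.28 ± 0.21 log2 units or 19.4-fold (SE, n = 3 genotypes, limma adjusted p = 5.37e-07). Against that, 46.8% of the 22492 genes tested were called at 6 h, 22.9% higher and 23.9% lower. From 6 to 24 h, 6 of the 8 sensors rose and 0 fell, where 32.1% of all genes tested were called, 14.2% higher and 18% lower. The median change of the 8 sensors was -0.85 at 6 h, against 0 for all genes, and 1.33 from 6 to 24 h, against -0.01 for all genes. With each array centred on its median in place of loess, 1 sensor (Ifih1) rose and 3 fell at 6 h. Of the 22492 genes 10534 were then called, 7978 of them higher. From 6 to 24 h 6 sensors rose and 0 fell with that centring, where 5397 genes were called, 2856 of them higher. All of this used the 12 arrays of the 3 genotypes that keep a receptor, with genotype as a term, so every array was set against the 0 h array of its own slide.

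Scaling matters to these directions. Loess normalization puts the centre of each array near 0 at every brightness, while centring each array on its median without loess moved the median of all genes to 0.23 at 6 h and 24 h, 0.08 at 42 h and -0.22 for 42 h against 24 h. It also moved the share of higher calls, which was 5156 of 10530 with loess and 7978 of 10534 with median centring at 6 h, 5109 of 10960 and 7886 of 10245 at 24 h, and 3899 of 8544 and 3811 of 6509 at 42 h. From 24 to 42 h it was 472 of 1277 with loess and 44 of 4692 with median centring. For DKO cells against the others it was 216 of 306 with loess and 10 of 61 with median centring, and for the response difference of Tlr9KO cells 274 of 330, where median centring called 0. Sensor calls that turned on this choice are named where they are given, while single-array values are with loess unless stated otherwise.

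**Figure D1:**
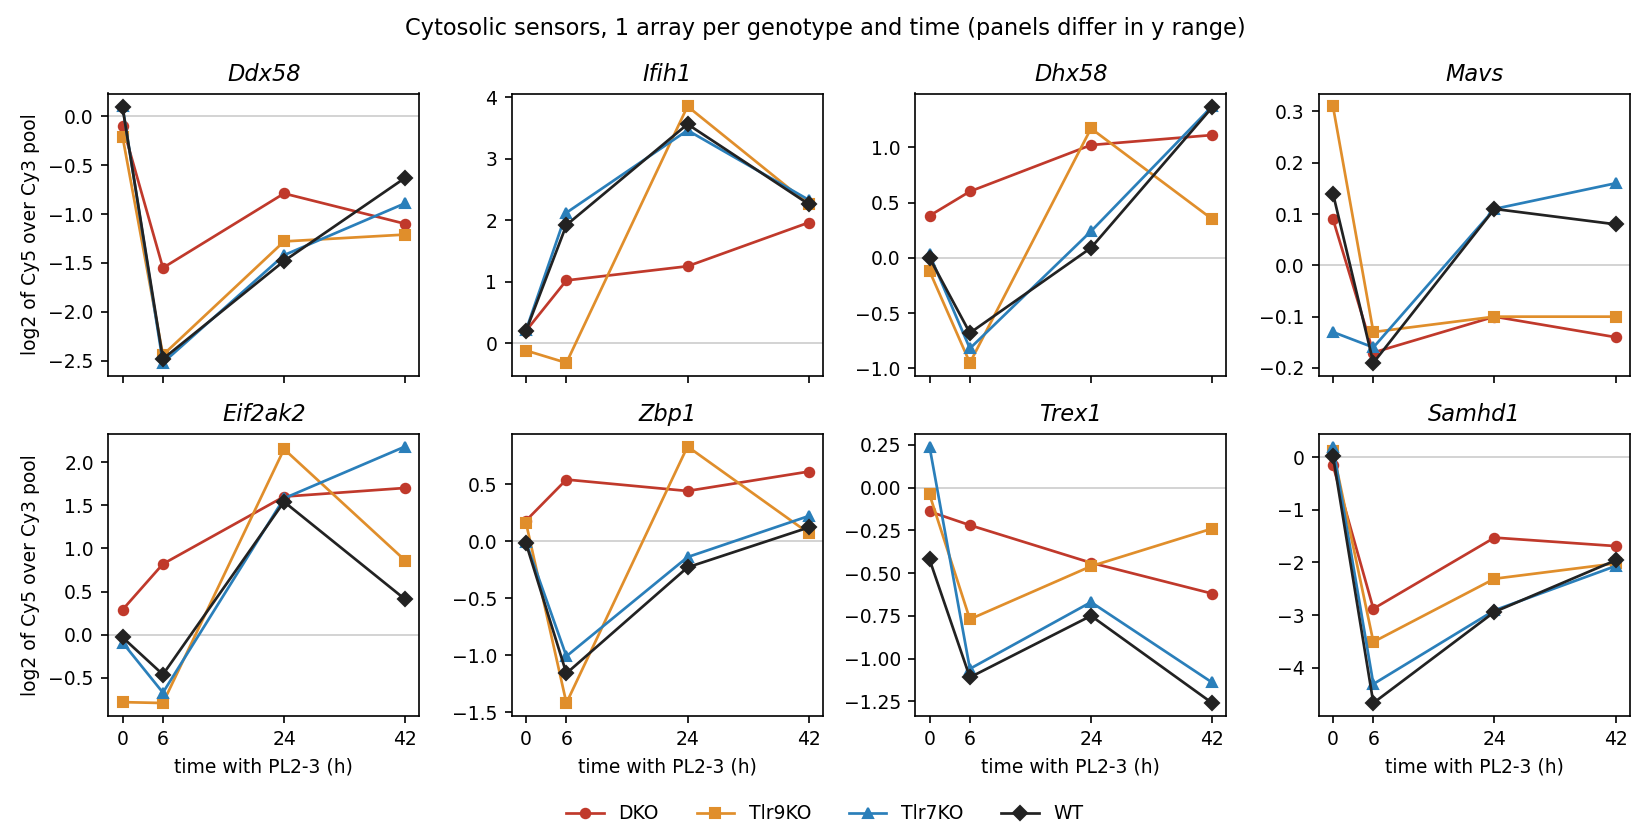
Log2 of Cy5 (sample) over Cy3 (pool of unstimulated RNA) of each sensor's brightest probe against time with PL2-3 in h, 1 point per array and 1 line per genotype. Ddx58 and Samhd1 dropped at 6 h in all 4 genotypes, Ifih1 peaked at 24 h in cells that keep a receptor, and the DKO line lay above the other 3 at 6 h for 6 of the 8 sensors.

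Among the RIG-I-like receptors, Ddx58 fell and Ifih1 rose. Ddx58, at 0, 6, 24 and 42 h, stood at -0.10, -1.55, -0.79 and -1.10 in DKO cells and at -0.21, -2.44, -1.28 and -1.21 in Tlr9KO cells (log2 ratio to the pool). It stood at 0.10, -2.52, -1.42 and -0.89 in Tlr7KO cells and at 0.09, -2.48, -1.48 and -0.63 in WT cells. Every stimulated array lay below every 0 h array. With median centring there was an exception, since WT cells at 42 h (0.33) lay above DKO cells at 0 h (0.28). In the 3 genotypes that keep a receptor Ddx58 fell by 2.48 ± 0.14 at 6 h (adjusted p = 1.09e-06), by 1.39 ± 0.14 at 24 h (adjusted p = 4e-05) and by 0.9 ± 0.14 at 42 h (adjusted p = 0.000863, limma, SE, n = 3 genotypes throughout). The rise of 1.09 ± 0.14 from 6 to 24 h passed (adjusted p = 0.000626), and the further 0.48 ± 0.14 to 42 h did not (adjusted p = 0.0775). A dimmer Ddx58 probe (chr4:40151133-40151192 on the mm9 build of the array annotation, against chr4:40151893-40151952 for the brightest) gave -1.76, -1.31 and -0.9 at the 3 times, each past the threshold.

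Ifih1, whose window holds the same motif, took the opposite course. At 0, 6, 24 and 42 h it stood at 0.20, 1.02, 1.25 and 1.96 in DKO cells and at -0.12, -0.32, 3.85 and 2.26 in Tlr9KO cells. It stood at 0.21, 2.12, 3.46 and 2.33 in Tlr7KO cells and at 0.20, 1.92, 3.56 and 2.26 in WT cells. The 3 genotypes that keep a receptor reached nearly the same level at 24 h, but at 6 h the Tlr9KO array stood at a change of -0.2 from its 0 h array, where the Tlr7KO array stood 1.9 and the WT array 1.72 log2 units above theirs. The change at 6 h was therefore 1.14 ± 0.46 and did not pass (limma adjusted p = 0.0707), and without the Tlr9KO arrays it was 1.81 ± 0.1 and passed (adjusted p = 2.28e-06). With median centring it was 1.6 and passed as well (adjusted p = 0.0133). The Ifih1 spot of the Tlr9KO array at 0 h was dim, with a raw Cy5 signal of 144 and Cy3 not well above background. That array had the fewest spots above background. At 24 h Ifih1 rose by 3.52 ± 0.46, or 11.5-fold (limma adjusted p = 0.000193), and at 42 h by 2.19 ± 0.46 (adjusted p = 0.00477, or 0.0521 without the WT arrays). The decline of 1.34 ± 0.46 from 24 to 42 h did not pass (adjusted p = 0.123), though the log2 value was lower at 42 h in each of the 3 genotypes, and it did pass without the Tlr9KO arrays (-1.21, adjusted p = 0.000255), with median centring (-1.94, adjusted p = 0.0169) and on the dimmer probe (-0.78, adjusted p = 0.0224). The brightest Ifih1 probe lies at chr2:62435507-62435566 (mm9). The dimmer one, at chr2:62434960-62435019, was above background in Cy5 on 7 arrays and in Cy3 on 0, and gave 1.03 ± 0.15 at 24 h (adjusted p = 0.000296) and 0.25 ± 0.15 at 42 h (adjusted p = 0.213).

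Dhx58, a regulator of the other RIG-I-like receptors, rose after 6 h. At 0, 6, 24 and 42 h it stood at 0.38, 0.60, 1.02 and 1.11 in DKO cells and at -0.12, -0.95, 1.17 and 0.35 in Tlr9KO cells. It stood at 0.03, -0.82, 0.24 and 1.37 in Tlr7KO cells and at 0.00, -0.68, 0.09 and 1.36 in WT cells. At 6 h the DKO array was above its 0 h array and the other 3 were below theirs, and Tlr9KO cells were highest at 24 h where Tlr7KO and WT cells were highest at 42 h. The change at 6 h was -0.79 ± 0.33 and did not pass (limma adjusted p = 0.0768), but without the Tlr9KO arrays -0.77 ± 0.1 passed (adjusted p = 0.000295). Dhx58 rose by 1.31 ± 0.33 from 6 to 24 h (adjusted p = 0.0135) and by 1.06 ± 0.33 from 0 to 42 h (adjusted p = 0.029, limma, SE, n = 3 genotypes). Neither call held without the Tlr7KO arrays (adjusted p = 0.0873 and 0.211) or without the WT arrays (0.061 and 0.174), and the 42 h call also missed with the authors' processed signals (adjusted p = 0.0711). At 24 h against 0 h the change was 0.53 ± 0.33 (adjusted p = 0.216), or 1.02 with median centring (adjusted p = 0.0159).

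Mavs, the adaptor on which RIG-I and MDA5 converge, stayed within a narrow range. Its log2 ratio at 0, 6, 24 and 42 h was 0.09, -0.17, -0.10 and -0.14 in DKO cells and 0.31, -0.13, -0.10 and -0.10 in Tlr9KO cells. It was -0.13, -0.16, 0.11 and 0.16 in Tlr7KO cells and 0.14, -0.19, 0.11 and 0.08 in WT cells. The changes from 0 h were -0.27 at 6 h (95% interval -0.56 to 0.03), -0.07 at 24 h (-0.37 to 0.22) and -0.06 at 42 h (-0.36 to 0.23), and none passed (limma adjusted p = 0.129, 0.695 and 0.746). With DKO cells in the fit, -0.27 at 6 h passed (adjusted p = 0.049), and with median centring the 24 h change was 0.72 (adjusted p = 0.0313), the opposite direction.

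Of the sensors that act without MAVS, Eif2ak2, the kinase PKR, rose late. At 0, 6, 24 and 42 h it stood at 0.29, 0.82, 1.60 and 1.70 in DKO cells and at -0.78, -0.79, 2.15 and 0.86 in Tlr9KO cells. It stood at -0.09, -0.67, 1.58 and 2.18 in Tlr7KO cells and at -0.03, -0.46, 1.54 and 0.41 in WT cells. All 4 genotypes were high at 24 h, and they spread apart at 42 h, where Tlr7KO cells were highest and WT cells lowest. Eif2ak2 rose by 2.06 ± 0.38 at 24 h (limma adjusted p = 0.00151) and by 1.45 ± 0.38 at 42 h (adjusted p = 0.0141), and the 42 h call was lost without the Tlr7KO arrays (1.04, adjusted p = 0.0885). The change at 6 h was -0.35 ± 0.38 (adjusted p = 0.508), and that from 6 to 24 h was 2.4 ± 0.38 (adjusted p = 0.00166, limma, SE, n = 3 genotypes). The low 0 h value of Tlr9KO cells came from the array with the fewest spots above background. The WT value at 42 h came from a dim spot, with a raw Cy5 signal of 78.8 (1420 in Tlr7KO cells) and Cy3 not well above background. The spread at 42 h and the 42 h change rest in part on that spot.

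Zbp1, which triggers cell death through RIPK3 when it binds left-handed RNA or DNA, fell and returned. At 0, 6, 24 and 42 h it stood at 0.18, 0.54, 0.44 and 0.61 in DKO cells and at 0.16, -1.42, 0.83 and 0.07 in Tlr9KO cells. It stood at -0.01, -1.01, -0.14 and 0.22 in Tlr7KO cells and at -0.02, -1.16, -0.23 and 0.12 in WT cells. At 6 h the 3 genotypes that keep a receptor all lay below their 0 h arrays, and DKO cells lay above theirs. Zbp1 fell by 1.24 ± 0.24 at 6 h (limma adjusted p = 0.00184) and rose by 1.35 ± 0.24 from 6 to 24 h (adjusted p = 0.00274), which left it 0.11 ± 0.24 above 0 h (adjusted p = 0.731, or 0.8 and adjusted p = 0.0113 with median centring). The 42 h change was 0.09 ± 0.24 (adjusted p = 0.792). From 24 to 42 h it was -0.02 (adjusted p = 0.976), and without the Tlr9KO arrays 0.35 (adjusted p = 0.0252). It was lower at 42 h than at 24 h in Tlr9KO cells and higher in Tlr7KO and WT cells. A second Zbp1 probe, for another transcript variant, gave -1.32 ± 0.34 at 6 h (adjusted p = 0.0101) and 1.67 ± 0.34 from 6 to 24 h (adjusted p = 0.00559). On that probe the change at 6 h was -0.11 in DKO cells, against -1.13 in Tlr9KO, -1.29 in Tlr7KO and -1.54 in WT cells. Its Tlr9KO value at 0 h was not well above background in Cy5.

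The enzymes that remove DNA and its building blocks were lower after stimulation, Samhd1 under every scaling tried and Trex1 with loess but not with median centring. Samhd1 at 0, 6, 24 and 42 h stood at -0.16, -2.88, -1.53 and -1.69 in DKO cells and at 0.12, -3.51, -2.31 and -2.02 in Tlr9KO cells. It stood at 0.20, -4.31, -2.91 and -2.07 in Tlr7KO cells and at 0.02, -4.67, -2.94 and -1.96 in WT cells. Every stimulated array lay more than 1 log2 unit below every 0 h array, and the 6 h array was the lowest of each genotype. With median centring every stimulated array was still lower, and the closest values were -0.59 (DKO at 24 h) and 0.37 (DKO at 0 h). After the drop at 6 h, Samhd1 was still lower than at 0 h, with a change of -2.83 ± 0.21 at 24 h (7.13-fold, limma adjusted p = 6.12e-06) and of -2.13 ± 0.21 at 42 h (adjusted p = 6.25e-05). It rose by 1.44 ± 0.21 from 6 to 24 h (adjusted p = 0.00106). A second bright probe gave -3.43 ± 0.17, -1.98 ± 0.17 and -1.39 ± 0.17 at the 3 times, each past the threshold. The remaining Samhd1 probe, a dim one, gave -0.52, -0.63 and -0.42 (the last with adjusted p = 0.12) and -0.11 from 6 to 24 h (adjusted p = 0.722), where the brightest probe rose.

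Trex1 had smaller estimates. At 0, 6, 24 and 42 h it stood at -0.14, -0.22, -0.44 and -0.62 in DKO cells and at -0.04, -0.77, -0.46 and -0.24 in Tlr9KO cells. It stood at 0.24, -1.06, -0.67 and -1.14 in Tlr7KO cells and at -0.42, -1.11, -0.75 and -1.26 in WT cells. The 0 h values of Tlr7KO and WT cells were 0.67 apart. Trex1 fell by 0.91 ± 0.19 at 6 h (limma adjusted p = 0.00333), by 0.55 ± 0.19 at 24 h (adjusted p = 0.0383) and by 0.81 ± 0.19 at 42 h (adjusted p = 0.00871). Median centring gave -0.13, 0.48 and -0.43 at the 3 times and none passed (adjusted p = 0.708, 0.125 and 0.199), so the direction at 24 h turned with the scaling. From 24 to 42 h Trex1 passed with median centring (-0.91, adjusted p = 0.0234) and not with loess. The 24 h call was lost with the processed signals (adjusted p = 0.0675), the series table (0.0677) and no filter (0.0534) as well. The 24 h and 42 h calls were also lost without the Tlr7KO arrays (adjusted p = 0.215 and 0.139) and without the WT arrays (adjusted p = 0.107 and 0.0855).

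**Figure D2:**
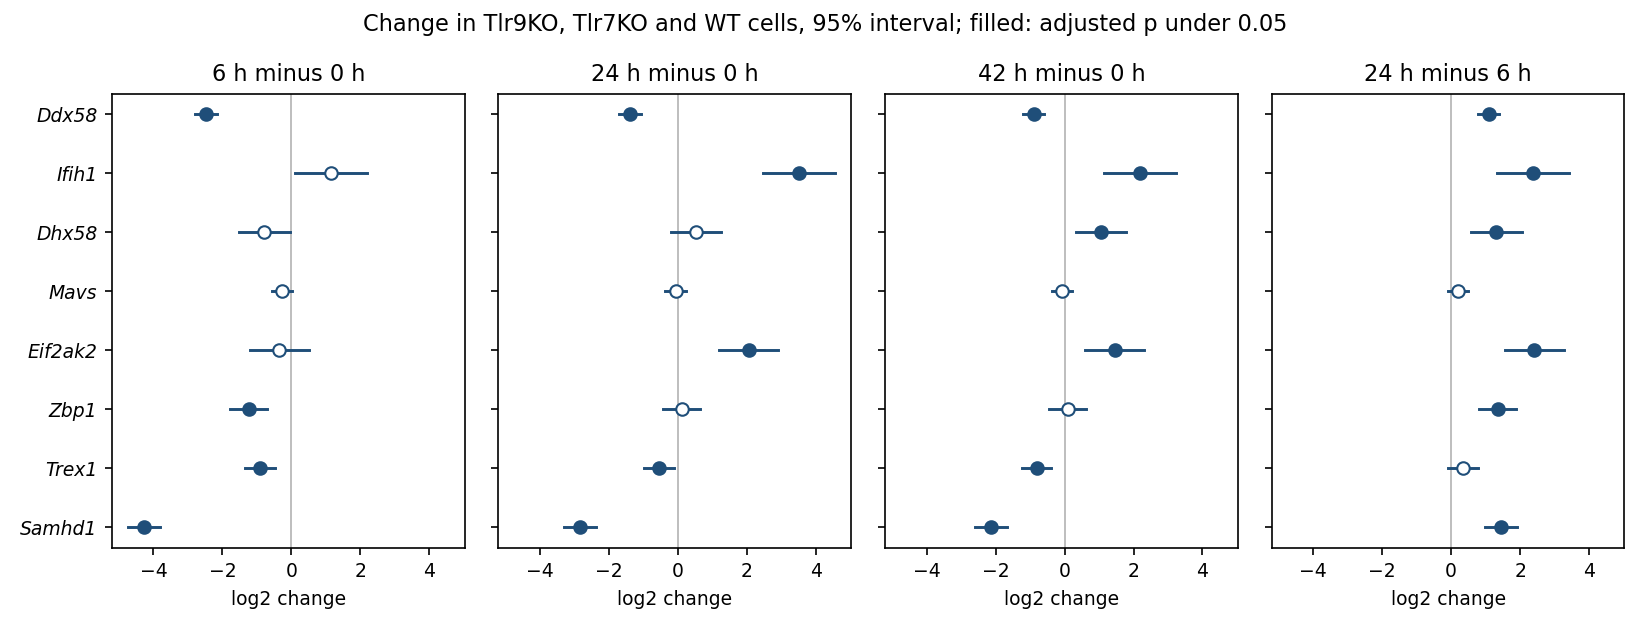
Log2 change of each sensor in the 3 genotypes that keep a receptor, with limma's 95% interval, for 6, 24 and 42 h against 0 h and for 24 h against 6 h; filled points passed an adjusted p of 0.05. At 6 h the 4 filled points lie left of 0, and from 6 to 24 h the 6 filled points lie right of it.

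At 24 h 5 of the 8 sensors were called, 2 higher (Ifih1 and Eif2ak2) and 3 lower (Ddx58, Trex1 and Samhd1), where 48.7% of all genes were called, 22.7% higher and 26% lower. With median centring 5 were higher (Dhx58, Mavs and Zbp1 too) and 2 lower (Ddx58 and Samhd1). Of all 22492 genes 10245 were called with that centring, 7886 of them higher. At 42 h 6 of the 8 were called, 3 higher (Dhx58 joined) and 3 lower, where 38% of all genes were called, 17.3% higher and 20.7% lower, and 3 of the 8 were called without the Tlr7KO arrays (4123 of 20619 genes were) or without the WT arrays (5081 of 21849 were). Between 24 and 42 h 0 of the 8 passed with limma (3 at an unadjusted p under 0.05, Ddx58, Ifih1 and Samhd1), where 5.68% of all genes passed. Without the Tlr9KO arrays 5 of the 8 passed, with Ddx58, Dhx58, Zbp1 and Samhd1 higher at 42 h and Ifih1 lower, where 5314 of 20384 genes passed. With median centring 2 of the 8 passed, Ifih1 and Trex1, both lower at 42 h, where 4692 of 22492 genes passed.

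The sensors did not share a single course. Over the 16 arrays, which share a reference pool, the log2 ratios of Ddx58 and Samhd1 had a Pearson correlation of 0.97, Dhx58 and Zbp1 of 0.86, and Dhx58 and Eif2ak2 of 0.79, while Ifih1 and Samhd1 had -0.49 (28 pairs were computed, as a description). The genes most like a sensor among the 12793 measured on every array were also compared. Samhd1 was closest to Rassf5 (0.991), Itm2b (0.99) and Gpsm3 (0.99). Ddx58 was closest to Trim14 (0.986), Parp10 (0.985) and Mndal (0.985), and Zbp1 to Xaf1 (0.955), Trim30a (0.943) and Trim30d (0.933). Ifih1 was closest to Isg15 (0.952), a ubiquitin-like modifier made on interferon, and Eloc (0.938). Dhx58 was closest to Ifi27l2a (0.937) and Nlrc5 (0.923). Eif2ak2 was closest to 1110051M20Rik (0.915), Acads (0.912) and Tubb5 (0.911), Trex1 to U2af1l4 (0.866), Mideas (0.851) and Gng10 (0.849), and Mavs to Slain2 (0.854).

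The 8 sensors were next set beside the other genes of their pathways. Of 31 interferon-stimulated genes tested, 22 fell and 1 rose at 6 h (median -1.11), and 18 rose and 2 fell from 6 to 24 h (median 0.75). With median centring 21 fell and 5 rose at 6 h, and 18 rose and 1 fell from 6 to 24 h. At 6 h the guanylate-binding protein gene Gbp2 fell by 2.14 ± 0.35 (limma adjusted p = 0.000677), Ifi27l2a by 2.13 ± 0.37 and Rtp4 by 1.73 ± 0.29. From 6 to 24 h Ifi27l2a rose by 3.01 ± 0.37 (adjusted p = 0.000467), Usp18, which dampens interferon receptor signalling, by 2.17 ± 0.29 and Xaf1 by 1.91 ± 0.23. At 24 h against 0 h the list held 2 higher and 8 lower genes (11 higher and 5 lower with median centring, so the balance turned), with Isg15 up by 2.06 ± 0.4 (adjusted p = 0.00199) and the antiviral enzyme gene Rsad2 down by 2.06 ± 0.21 (adjusted p = 3.67e-05). At 42 h it held 1 higher gene, Ifi27l2a (1.37 ± 0.37), and 5 lower (5 higher and 4 lower with median centring), with Rsad2 still lower by 2.01 ± 0.21.

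Of the other RNA sensors and effectors, 10 of 21 fell and 2 rose at 6 h, and 9 rose and 1 fell from 6 to 24 h. With median centring 7 fell and 6 rose at 6 h, and 8 rose and 0 fell from 6 to 24 h. Oas1a, an antiviral enzyme gene that reads double-stranded RNA, fell by 2.19 ± 0.28 at 6 h (limma adjusted p = 0.000131) and rose by 2.21 ± 0.28 from 6 to 24 h (adjusted p = 0.000526). Ripk3, the kinase downstream of ZBP1, rose by 1.74 ± 0.14 from 6 to 24 h (adjusted p = 7.95e-05). At 24 h 3 of these 21 genes were higher than at 0 h and 6 lower, and at 42 h 2 were higher and 5 lower, against 8 higher and 2 lower at 24 h and 2 each way at 42 h with median centring. Ifit3, a binder of viral RNA complexes, was 1.37 ± 0.35 lower at 24 h (adjusted p = 0.00967), and Eif2ak3, the PKR relative PERK, was 1.21 ± 0.21 lower (adjusted p = 0.0011).

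Of 21 genes of cytosolic DNA sensing, 11 fell and 6 rose at 6 h, and 11 rose and 2 fell from 6 to 24 h. With median centring 7 fell and 8 rose at 6 h, and 11 rose and 2 fell from 6 to 24 h. The DNA-binding interferon-inducible genes Ifi203 and Ifi204 changed by -3.94 ± 0.28 (limma adjusted p = 3.88e-06) and -3.31 ± 0.2 at 6 h. Sting1, the adaptor of the cGAS pathway, fell by 3.35 ± 0.23 (adjusted p = 2.7e-06). From 6 to 24 h Sting1 rose by 2.61 ± 0.23 (adjusted p = 0.000114), Ifi203 by 2.43 ± 0.28 and Ifi204 by 1.67 ± 0.2. The Ifi200 genes are near-identical copies in part, so their probes may share signal. The DNA repair nuclease gene Mre11a was 1.27 ± 0.15 higher at 42 h (adjusted p = 0.000157).

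Of 27 signalling genes downstream of the sensors, 12 fell and 5 rose at 6 h, and 1 rose and 6 fell from 6 to 24 h. Median centring turned the balance at 6 h, with 4 lower and 9 higher, and from 6 to 24 h it gave 2 higher and 3 lower. Tnfaip3, which encodes the inhibitor A20, rose by 2.34 ± 0.15 at 6 h (limma adjusted p = 2.44e-06) and fell by 1.78 ± 0.15 from 6 to 24 h. Trim25, the ligase that activates RIG-I, fell by 1.61 ± 0.26 at 6 h (adjusted p = 0.000661), Irf7 was 1.27 ± 0.24 lower at 24 h (adjusted p = 0.0016), and Irf3, the transcription factor that these sensors activate, was 1.05 ± 0.17 lower at 42 h (adjusted p = 0.000937, or -0.55 and 0.14 with median centring). Of 19 interferon signalling genes 12 fell and 3 rose at 6 h, 15 were lower and 2 higher at 24 h, and 3 rose and 3 fell between those times. With median centring 6 fell and 4 rose at 6 h, and 2 were lower and 4 higher at 24 h. Irf4, a factor of B cell activation, rose by 2.6 ± 0.18 at 6 h, and Irf1 fell by 2.28 ± 0.27 (adjusted p = 8.23e-05). Jak1 and Stat2, which carry the interferon signal, were lower at 24 h by 1.55 ± 0.16 and 1.39 ± 0.23, and with median centring Jak1 no longer passed (-0.43, adjusted p = 0.178).

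Among 16 other nucleases and genes of nucleic acid clearance, 6 rose and 5 fell at 6 h and 5 rose and 6 fell from 6 to 24 h (10 rose and 2 fell, and then 6 rose and 1 fell, with median centring). Pld4, an endosomal exonuclease, fell by 3.59 ± 0.27 at 6 h (limma adjusted p = 4.63e-06) and rose by 2.3 ± 0.27 from 6 to 24 h. Rnaseh2b, a subunit of RNase H2, was 2.24 ± 0.12 higher at 24 h (adjusted p = 1.4e-06), and the flap endonuclease gene Fen1 1.87 ± 0.19 higher. Of 11 endosomal receptor genes 3 fell and 1 rose at 6 h (2 fell and 4 rose with median centring), with the endosomal transporter gene Slc15a4 down by 2.32 ± 0.13 (adjusted p = 9.19e-07). From 6 to 24 h 2 of the 11 fell and 0 rose, or 1 and 0 with median centring.

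**Figure D3:**
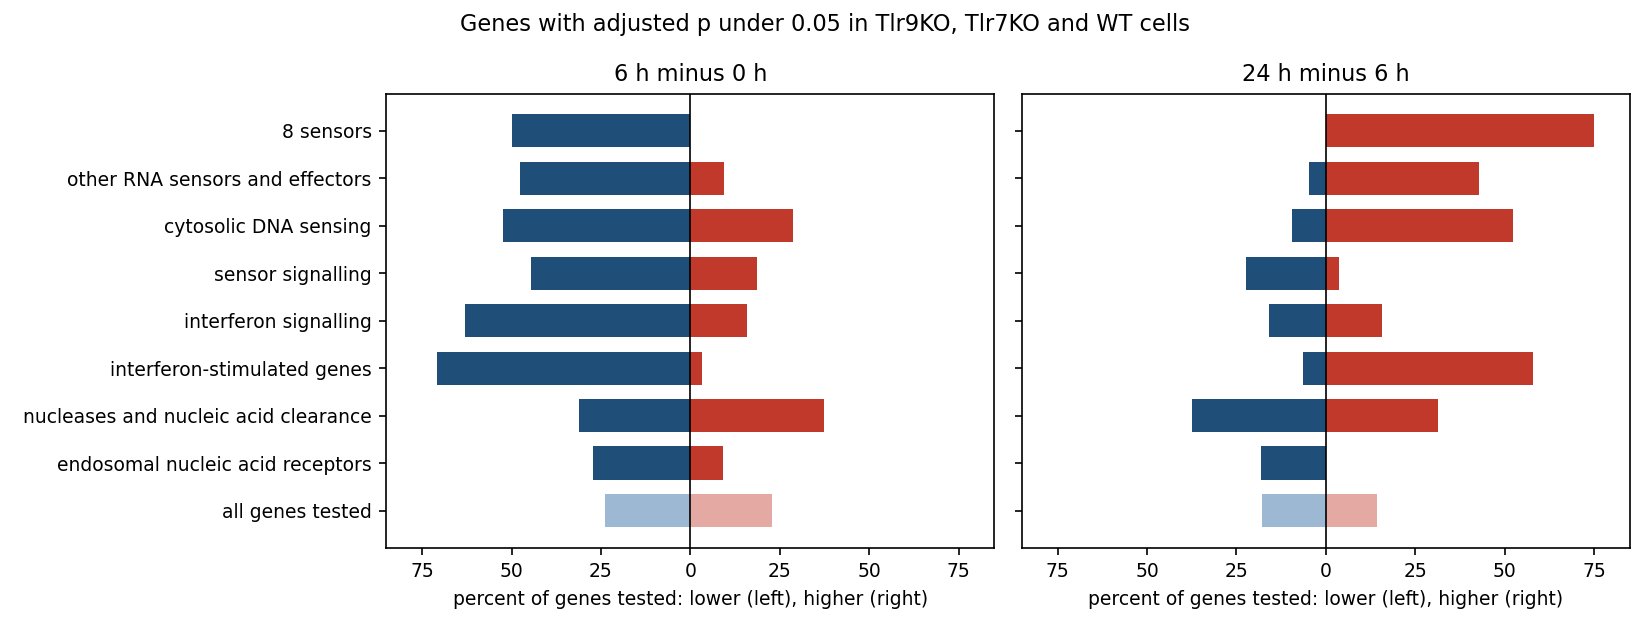
Percent of the genes tested that passed an adjusted p of 0.05, lower to the left and higher to the right, for the 8 sensors, 7 lists of related genes and all genes (pale), at 6 h against 0 h and at 24 h against 6 h in the 3 genotypes that keep a receptor. The sensors, other RNA sensors, DNA sensing genes and interferon-stimulated genes have long bars to the left at 6 h and to the right from 6 to 24 h, though with median centring, not plotted, the other RNA sensors and DNA sensing genes had about as many higher as lower calls at 6 h.

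Markers of other cells moved as well. Of 14 myeloid markers, above background in Cy5 on 10 to 14 of 14 per array, 13 fell at 6 h (median -1.64), and 7 of 8 erythroid markers (median -1.75), 8 of 11 T cell markers (median -0.8, 1 rose) and 8 of 10 markers of NK and plasmacytoid cells (median -1.1) fell too. The 7 B cell markers also fell (median -2.39). With median centring the falls at 6 h were 10 of 14 myeloid, 3 of 8 erythroid, 6 of 11 T cell, 6 of 10 NK and plasmacytoid and 6 of 7 B cell markers, with 2 T cell markers and 1 NK and plasmacytoid marker higher. The medians of the marker lists across genotypes ran at 6 h from -1.99 to -1.53 (myeloid) and from -1.02 to -0.73 (NK and plasmacytoid), against -0.34 to 0.31 and -0.24 to 0.04 at 0 h. From 6 to 24 h 2 of the 14 myeloid markers rose and 1 fell, and 1 of the 10 NK and plasmacytoid markers rose and 3 fell. The part of these cells in the fall of the sensors at 6 h was not tested, and in bulk RNA fewer cells of a type and less RNA per cell cannot be told apart.

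DKO cells were set against the others to ask whether the course depends on the endosomal receptors. Over the stimulated times, 0 of the 8 sensors differed between DKO cells and the mean of Tlr9KO, Tlr7KO and WT cells, where 306 of 22966 genes (1.33%) did (limma adjusted p under 0.05, with 4 of the 8 at an unadjusted p under 0.05). Samhd1 came nearest, 0.94 ± 0.21 higher in DKO cells (adjusted p = 0.0658), and without the 42 h arrays it passed (1.24, adjusted p = 0.0449). The others ranged from -0.97 ± 0.5 for Ifih1 (95% interval -2.1 to 0.16) to 0.83 ± 0.29 for Zbp1 (0.18 to 1.49). The difference between the responses, each genotype's stimulated arrays less its own 0 h array, was not called for any sensor either, where 0.0384% of genes were. Samhd1, at 1.21 ± 0.42 (limma adjusted p = 0.571), was the 1 sensor with an unadjusted p under 0.05.

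The DKO array was also compared with the others time by time. At 6 h it stood above all 3 others for 6 of the 8 sensors (Ddx58, Dhx58, Eif2ak2, Zbp1, Trex1 and Samhd1) and below them for 0, where 22.9% of 18863 genes stood above and 29.3% below. DKO minus the others at 6 h was 1.74 ± 0.36 for Zbp1 (limma adjusted p = 0.419), 1.47 ± 0.55 for Eif2ak2, 1.42 ± 0.47 for Dhx58, 1.29 ± 0.39 for Samhd1 and 0.93 ± 0.2 for Ddx58. None of these passed over all genes, of which 0.0131% did (5 of the 8 had an unadjusted p under 0.05), and this comparison by time was added after the data were seen. Of 31 interferon-stimulated genes, 29 were highest in DKO cells at 6 h and 0 were lowest. With median centring the same 6 sensors stood above at 6 h, where 10% of all genes did, 1 stood below, where 56.6% of all genes did, and 25 of the 31 interferon-stimulated genes were highest. At 0 h, before PL2-3, 3 of the 8 sensors (Dhx58, Eif2ak2 and Zbp1) and 19 of the 31 interferon-stimulated genes were highest in DKO cells, where 21.5% of 17899 genes were. With median centring this was 2 of the 8 (Dhx58 and Eif2ak2) and 7 of the 31, where 6.41% of all genes were.

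At 24 h the largest difference was that of Ifih1. DKO minus the others was -2.37 ± 0.75 (limma adjusted p = 0.118), with 1.25 in DKO cells against 3.85, 3.46 and 3.56 in Tlr9KO, Tlr7KO and WT cells. The DKO value lay below the range of the other 3, as it did for 34.3% of all genes. With median centring the difference was -3.14 (adjusted p = 0.228), and the DKO array then lay below the other 3 for 5 of the 8 sensors and above them for 1 (Samhd1), where 52% of all genes lay below and 9.16% above. At that time 0 of the 8 passed (3 had an unadjusted p under 0.05), where 1.9% of genes did. Ddx58, Trex1 and Samhd1 were highest in DKO cells (37.9% of all genes were), by 0.6 ± 0.2, 0.18 ± 0.34 and 1.2 ± 0.39 (adjusted p = 0.126, 0.814 and 0.125), but with median centring Ddx58 was -0.09 and Trex1 -0.68. At 42 h no difference was larger than 0.55 ± 0.55 (Eif2ak2), and 0 of the 8 passed (0 at an unadjusted p under 0.05), where 0.0523% of genes did.

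**Figure D4:**
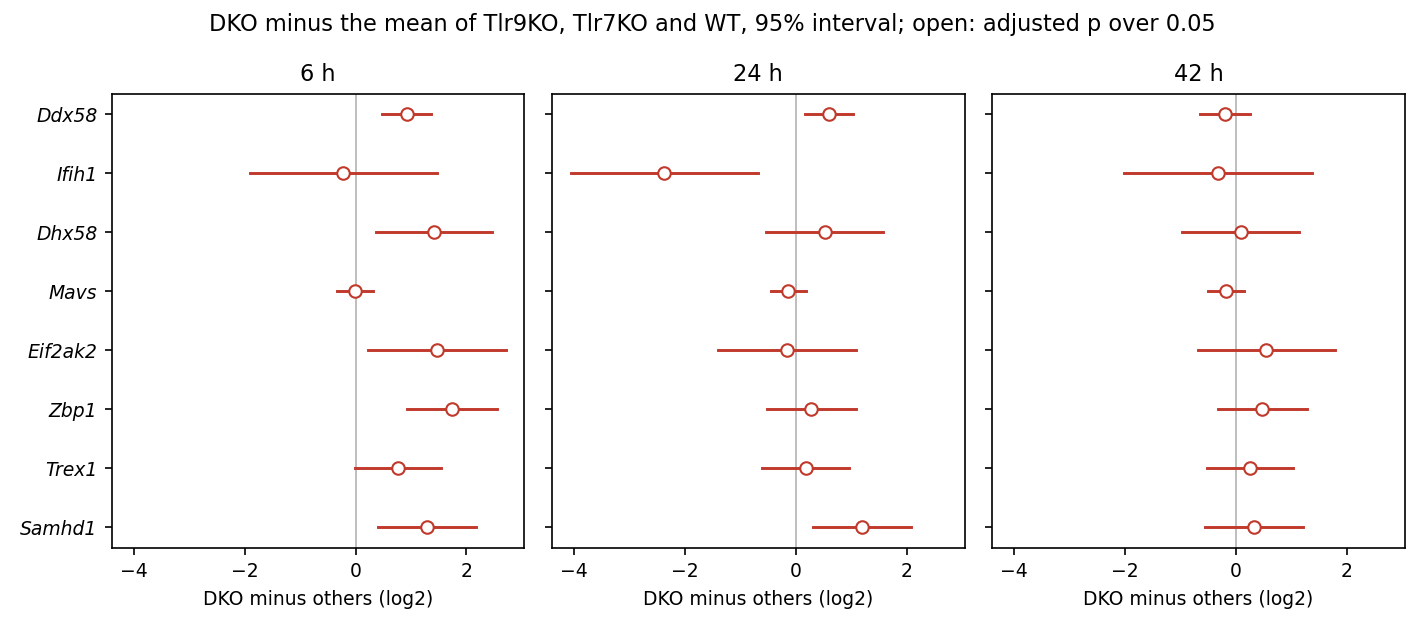
DKO minus the mean of Tlr9KO, Tlr7KO and WT cells for each sensor at 6, 24 and 42 h, in log2 units with limma's 95% interval; all points are open since none passed an adjusted p of 0.05. At 6 h 5 intervals lie right of 0, at 24 h that of Ifih1 lies left of 0 and those of Ddx58 and Samhd1 right of it, and at 42 h all include 0.

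The loss of Tlr7 in cells with Tlr9 was read as Tlr7KO minus WT on the same slide. Over the stimulated times it was called for 0 of the 8, where 1 gene of 22966 (0.00435%) was, and 0 of the 8 had an unadjusted p under 0.05. The estimates ran from -0.08 for Ddx58 (95% interval -0.6 to 0.45) to 0.53 for Eif2ak2 (-0.46 to 1.52), and the intervals of Mavs (-0.17 to 0.24) and Ifih1 (-1.33 to 1.44) were the narrowest and the widest. At 24 h the Tlr7KO array was within -0.1 and 0.15 of the WT array for all 8. The widest gap was that of Eif2ak2 at 42 h, at 2.18 in Tlr7KO cells against 0.41 in WT cells, which rests on 1 array each and was not tested. The WT spot was dim there, with Cy3 not well above background.

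The loss of Tlr7 in cells without Tlr9, DKO minus Tlr9KO on the same slide, was called for 0 of the 8 sensors, where 0.0435% of genes were (1 at an unadjusted p under 0.05, Samhd1). Samhd1 was 0.58 ± 0.25 higher (limma adjusted p = 0.821), Dhx58 0.72 ± 0.4 and Zbp1 0.7 ± 0.36. Tlr9KO minus WT was likewise called for 0 of the 8, where 0.0566% of genes were, with Trex1 0.55 ± 0.18 higher (adjusted p = 0.467), Samhd1 0.58 ± 0.25 (adjusted p = 0.539) and Ifih1 -0.65 ± 0.61 (adjusted p = 0.79). With loess Trex1 was higher in Tlr9KO than in WT cells at each of the 3 stimulated times, and it was also higher at 0 h. With median centring it was higher at 0 h and 42 h but lower at 6 h (0.42 against 0.49) and 24 h (0.66 against 1.4). Samhd1 with that centring was higher in Tlr9KO cells at 6 h (-2.34 against -3.19). It was lower in them at 24 h (-1.13 against -0.83) and 42 h (-1.16 against -0.71). The response difference of Tlr9KO against WT was called for 0 of the 8 (0 at an unadjusted p under 0.05), where 1.4% of genes were, and Eif2ak2 had the largest estimate (1 ± 0.88, adjusted p = 0.936). Among the related genes on the 7 lists, Traf2, an adaptor of TNF receptors and of MAVS, was called there (-1.17 ± 0.19, adjusted p = 0.0263), and this call was lost with median centring, with the processed signals, with the series table and without any 1 of the 3 stimulated times.

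Each genotype's 6 h array was also set against its own 0 h array. In DKO cells 2 of the 8 were at least 2-fold lower (Ddx58 and Samhd1) and 0 higher, where 8.3% of genes were lower and 8.3% higher. In Tlr9KO cells 3 were lower (Ddx58, Zbp1 and Samhd1) and 0 higher, where 8.94% and 10.3% of genes were. In Tlr7KO cells 3 were lower (Ddx58, Trex1 and Samhd1) and 1 higher (Ifih1), where 10.6% and 9.71% were, and in WT cells 3 were lower (Ddx58, Zbp1 and Samhd1) and 1 higher (Ifih1), where 10.6% and 9.43% were.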

How the data were processed

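RNA of B cells from AM14 spleens was read on 16 Agilent arrays of 2 colours, 1 for each of 4 genotypes and 4 times. Per the labels, RNA was extracted with Trizol, cleaned on RNeasy columns, amplified and labelled with Cy5 (sample) or Cy3 (pool); there was no dye swap. Per the file headers, the scans were quantified by Agilent Feature Extraction 10.1.1.1, and probes were annotated on mm9. The deposited intensity of each of the 62976 spots gives its mean foreground and local median background. The authors' processed signals, also a deposited intensity, are background-subtracted and dye-normalized per the file headers. The deposited log ratio and the authors' series table are on a log10 scale, and the table equalled the log10 ratio of the processed signals within 6e-04 in 100% of the values checked. Other deposited columns are flags.

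Foreground and background intensities were corrected with normexp (offset 50) and normalized by loess within each array in R 4.3.3 with limma 3.58.1 and data.table (version 1.17.8), giving log2 of Cy5 over Cy3. The 3671 control spots were dropped, outlier spots set to missing and repeated probes averaged. Of 55681 probes, 27235 were named by accession, 3581 by symbol and 565 by an older symbol through RefSeq genes (GRCm38.p6), and 24300 kept no symbol. A gene is its brightest probe, and the other probes of a sensor are given too. Genes with 3 or more arrays well above background in Cy5 or Cy3 were tested with limma (lmFit and eBayes, 2-sided, Benjamini-Hochberg over all genes tested, threshold 0.05). Responses used 12 arrays with genotype as a term, genotype comparisons the 12 arrays of 6, 24 and 42 h with a term for time, and response differences all 16, where the single 0 h arrays were assumed to vary like the others. Genotypes or times stand in for replicates, with 6 residual degrees of freedom. All sensors are named. Of the list genes, those named are among the 3 or fewer per list and comparison with the largest change among those past the threshold that moved the same way in every genotype (or at every time). Genes with a like course were ranked by Pearson correlation over 16 arrays, and unnamed probes among the leading 3 are left out. The sensors, lists and tests were chosen with earlier results of these data known. Alternatives were other scalings, the processed signals, the series table, the filter, the offset, the choice of probe, and leaving out genotypes or times. The fits were tested on simulated data.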

Additional observations from a re-analysis of the deposited data

Results flagged for a closer look

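These values are single-array changes in which 1 genotype moved one way and each of the other 3 the opposite way (log2, later time minus earlier time), with 1 exception at the printed precision, Mavs from 24 to 42 h. None of these differences was tested, and each side rests on 1 array per genotype and time. They were taken with loess, and several did not hold with median centring. Tlr9KO cells then also fell from 24 to 42 h in Ddx58 (-0.45 to -0.65), Samhd1 (-1.13 to -1.16) and Trex1 (0.66 to 0.59). From 0 h they rose in Ifih1 by 6 h (0.03 to 0.1) and in Zbp1 by 42 h (0.36 to 0.39). Mavs rose from 0 to 24 h in WT cells as well (0.85 to 1.87). The tested response differences of DKO and of Tlr9KO cells were called for 0 of the 8 sensors.

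DKO cells went against the others at 6 h against 0 h in Dhx58 (0.22, against -0.85 to -0.68 in the others), Eif2ak2 (0.53, against -0.59 to -0.01) and Zbp1 (0.37, against -1.58 to -1). From 6 to 24 h they did so in Zbp1 (-0.11, against 0.87 to 2.25) and Trex1 (-0.23, against 0.31 to 0.39). From 24 to 42 h they did so in Ddx58 (-0.31, against 0.07 to 0.85), Ifih1 (0.71, against -1.58 to -1.13) and Samhd1 (-0.16, against 0.29 to 0.98). The direction of the Zbp1 entries depends on the probe. On the second Zbp1 probe the change of DKO cells at 6 h was -0.11, still apart from the others (-1.54 to -1.13). From 6 to 24 h DKO cells rose on that probe, like the others, to 0.55 against 0 h.

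Tlr9KO cells went against the others at 6 h against 0 h in Ifih1 (-0.2, against 0.82 to 1.9). From 24 to 42 h they did so in Dhx58 (-0.81, against 0.09 to 1.27), Zbp1 (-0.77, against 0.17 to 0.36) and Trex1 (0.22, against -0.52 to -0.18). At 42 h against 0 h they did so in Zbp1 (-0.09, against 0.14 to 0.43). On the second Zbp1 probe, not well above background in Cy5 on their 0 h array, their change was 0.22. Tlr7KO cells did so in Mavs alone, by 0.24 at 24 h against 0 h (-0.42 to -0.03 in the others), by 0.3 at 42 h against 0 h (-0.42 to -0.06) and by 0.06 from 24 to 42 h (-0.04 to 0, where the step of Tlr9KO cells rounds to 0 and shows no direction), and these changes of Mavs are small beside its intervals.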

How the results depend on the processing

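Of 129 recomputed counts of sensors past the threshold, 124 stayed within 1.5 times. Many of these could not differ or were no separate check. A scaling of brightness between arrays leaves the log ratios unchanged, and the series table repeats the processed signals. A count of 0 that stayed 0, as in most genotype comparisons and response differences, was taken as kept. At 42 h against 0 h the count was 6, and leaving out a genotype gave 3 to 6. From 24 to 42 h it was 0, leaving out a genotype gave 0 to 5, and median centring gave 2. For DKO against the others it was 0, and leaving out a time gave 0 to 1. For single sensors, 1050 of 1087 recomputed values kept their side of the threshold. Not counting the other probes, 60 of these turned sign with a call in neither fit. Of the rest of the 1087, 19 lost a call, 14 gained one and 4 reversed with a call in at least 1 fit. The reversals were Mavs (0.72) and Trex1 (0.48) at 24 h with median centring, Samhd1 from 6 to 24 h on its dim probe (-0.11), and Zbp1 from 24 to 42 h without the Tlr9KO arrays (0.35, where leaving out a genotype gave -0.21 to 0.35); the cause was not tested. With the processed signals the count of all genes called for DKO against the others was 4, against 306, and that from 24 to 42 h was 4, against 1277. No paired analysis was possible by replicate number, because each genotype and time has 1 array; the times of a genotype were already paired in the response fits through its term. A signal near background limits the dimmer probes of Ifih1 and Samhd1, and the Eif2ak2 value of WT cells at 42 h. It also limits the 0 h values of Tlr9KO cells for Ifih1 and for the second Zbp1 probe.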
